A study of Caenorhabditis elegans with 2 samples.

Results

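Binding of NHR-80, a nuclear receptor related to mammalian HNF4 and known for its role in fat metabolism, was described at 10 protease genes of Caenorhabditis elegans. They are the cathepsin B-like cysteine protease genes cpr-1, cpr-3, cpr-4, cpr-5 and cpr-6 and the cathepsin D-like aspartyl protease genes asp-1, asp-3, asp-4, asp-5 and asp-6. They were chosen by name, as proteases of the gut lumen and of lysosomes, and make up 10 of the 19973 protein-coding genes on the nuclear chromosomes. All 10 were found in the annotation. For each gene, every peak summit from 2000 bp upstream of the annotated 5' end to 1000 bp past the 3' end was taken, a stretch called the gene window here.

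The animals were whole hermaphrodites at the young adult stage, 64 hours after synchronisation as starved L1 larvae. They were of strain OP460, which carries the unc-119 allele tm4063 on chromosome III and the integrated array wgIs460 with NHR-80 fused at its C terminus to GFP and FLAG. Both alleles are shared by all animals, and there was 1 group of 2 biological replicates, with no untagged or mutant group analysed here. The immunoprecipitation used an antibody against GFP by the sample description, although another label field names nhr-80.

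On build ce11, replicate 1 had 30000 listed peaks and replicate 2 had 29712, and the pooled list had 30000. The authors kept 7038 of the latter in a list thresholded by irreproducible discovery rate (IDR), a limit set by how well peak ranks repeat between replicates. The signal of a peak is the authors' enrichment value against a control. It has no unit, each list has its own scale, and the thresholded list ran from 93.0 to 2158. The lists carry no read counts, so the depth is unknown.

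Cathepsins are proteases that digest protein in acidic compartments. In cysteine cathepsins a cysteine of the enzyme attacks the peptide bond, while in aspartyl cathepsins a pair of aspartates activates a water molecule that does so, and both kinds are made as inactive precursors. In the worm the intestine is the organ of digestion, fat storage and yolk synthesis, and several of these enzymes are known to be made there. The peaks come from whole animals, so the tissue of binding was not resolved, and peak lists do not measure expression.

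All 10 genes had at least 1 thresholded summit in the gene window, against 32.3% of all protein-coding genes. There were 23 such summits, and none was counted for more than 1 of the 10 genes. Of these, 10 lay in promoters, taken as 1000 bp upstream to 200 bp downstream of the 5' end, and 8 lay within 300 bp of a 3' end. The remaining 5 were in neither stretch. A promoter summit was found at 8 of the 10 genes, all except cpr-5 and asp-3, against 18.6% of all protein-coding genes. The strongest promoter signals of these 8 genes had a median of 374 and ranged from 228 to 874, while the median over the 3712 genes with a promoter summit was 202. No test was made of these shares, because the genes were listed with earlier results of these data known.

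**Figure D1:**
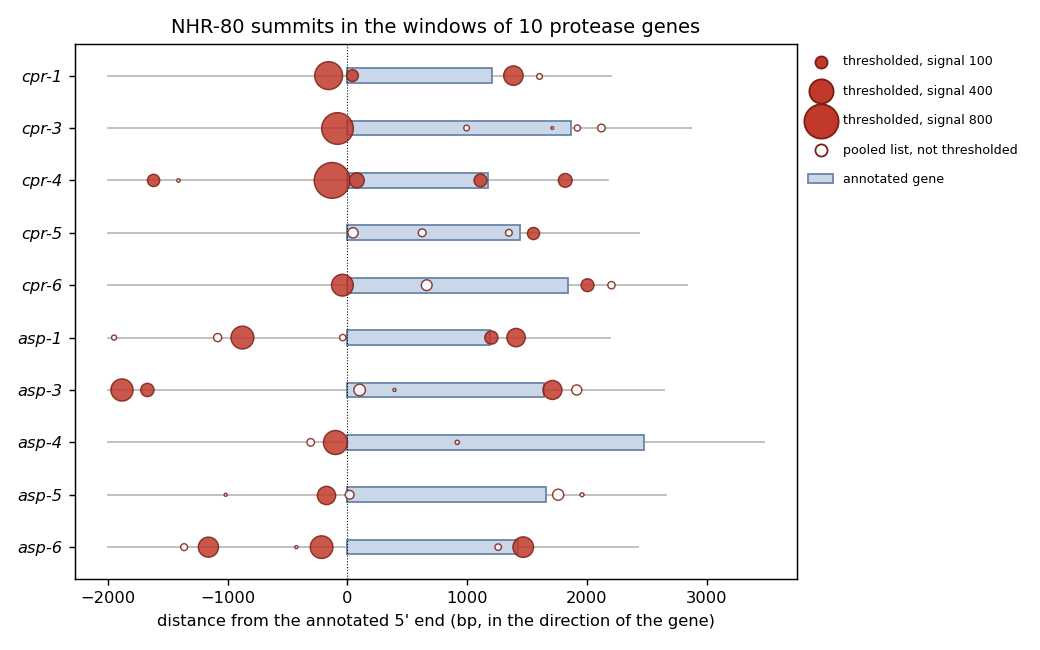
Position of every NHR-80 summit in the windows of the 10 genes, as distance in bp from the annotated 5' end in the direction of the gene. Filled circles are thresholded summits and open circles are pooled summits below the threshold, with area proportional to signal, and bars are annotated genes. Thresholded summits lie just upstream of the start at 7 genes, at -876 bp in asp-1, and near the 3' end at 7 genes.

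The sequences under the promoter summits show what the bound stretches hold. That of asp-6 beyond its 3' end was picked because it carries the GATA factor site more than once. Of the other thresholded summits near 3' ends, that of cpr-1 also had this site within 50 bp. Those of cpr-4, cpr-5, cpr-6, asp-1 and asp-3 had none. Each line gives the bases within 50 bp of a summit on the strand of the gene, from the RefSeq WBcel235 genome, cut short where an untranslated region begins. Capitals mark TGATAA, a site of GATA factors such as ELT-2, CACGTG, the E-box bound by factors of the HLH-30/TFEB class, and AGGTCA, a nuclear receptor half-site. All were searched on both strands, so TTATCA and TGACCT mark the first and the last on the other strand. None of the marked sites overlaps another.
cpr-4 promoter, plus strand (chrV:6614497-6614597): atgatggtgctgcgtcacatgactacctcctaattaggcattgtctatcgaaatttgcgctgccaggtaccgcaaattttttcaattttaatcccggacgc
cpr-3 promoter, minus strand (chrV:15298740-15298840): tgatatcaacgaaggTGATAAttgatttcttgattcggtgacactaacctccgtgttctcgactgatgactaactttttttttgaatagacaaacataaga
cpr-1 promoter, plus strand (chrV:11975345-11975445): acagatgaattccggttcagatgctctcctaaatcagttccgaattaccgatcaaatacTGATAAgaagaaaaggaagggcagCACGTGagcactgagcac
cpr-6 promoter, plus strand (chrX:6607116-6607206): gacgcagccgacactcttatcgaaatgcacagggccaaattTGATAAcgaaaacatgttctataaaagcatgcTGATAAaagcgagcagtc
asp-4 promoter, minus strand (chrX:13221511-13221611): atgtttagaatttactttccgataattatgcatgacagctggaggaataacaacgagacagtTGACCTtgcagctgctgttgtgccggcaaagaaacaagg
asp-1 promoter, minus strand (chrV:19051578-19051678): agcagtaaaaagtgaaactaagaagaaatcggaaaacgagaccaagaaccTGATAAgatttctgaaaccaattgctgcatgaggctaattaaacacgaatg
asp-6 promoter, minus strand (chrV:8269102-8269202): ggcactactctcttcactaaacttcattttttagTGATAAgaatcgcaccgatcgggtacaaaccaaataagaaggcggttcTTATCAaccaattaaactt
asp-5 promoter, plus strand (chrV:8272153-8272253): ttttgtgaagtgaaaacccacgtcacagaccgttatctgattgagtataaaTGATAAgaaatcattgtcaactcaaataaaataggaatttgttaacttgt
asp-6 beyond the 3' end, minus strand (chrV:8267418-8267510): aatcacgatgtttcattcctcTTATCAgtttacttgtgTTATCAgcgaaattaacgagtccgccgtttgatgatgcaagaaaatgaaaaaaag

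TGATAA lay within 50 bp of 10 of the 23 summits (43.5%), close to the 37.9% of all 7020 nuclear thresholded summits and to the 42.5% of those above the list's median signal. At the strongest summit of each gene it was present in 6 genes, cpr-1, cpr-3, cpr-6, asp-1, asp-5 and asp-6, and absent from cpr-4, cpr-5, asp-3 and asp-4. The summits of asp-1 and of the asp-6 3' end fell inside a copy, and that of asp-5 lay 1 bp from one. At the strongest summits of cpr-6, cpr-1, asp-6 and cpr-3 the nearest copy was 4, 9, 11 and 30 bp away. At weaker summits it was 10 bp away for cpr-1 past its 3' end, and 38 bp for cpr-4 at 1820 bp downstream of the start and for asp-3 at -1670 bp. Distances over all summits were not computed. By a measure that uses no peaks, TGATAA was present in the 250 bases before the start of 7 of the 10 genes, against 26.8% of all protein-coding genes. These 7 were cpr-1, cpr-3, cpr-4, cpr-6, asp-4, asp-5 and asp-6. The promoters of cpr-4 and asp-4 thus hold a copy that lies outside the 50 bp around their strongest summits.

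CACGTG was found near 2 of the 23 summits, those of cpr-1 at -156 bp and of asp-6 at -1160 bp, against 4.25% of all nuclear thresholded summits. AGGTCA was found near 1 summit, that of asp-4, against 3.33%. A match describes letters in these windows and does not show which protein was bound to them.

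Among the cathepsin B-like genes, cpr-4 had the strongest NHR-80 peak of the 10 genes. CPR-4 is a cathepsin B homologue that can be secreted. The gene (WBGene00000784, V: 6614674 to 6615851, plus strand) had its main summit at V: 6614547, 127 bp upstream of the start and in intergenic sequence. Its signal was 874, with 493 in replicate 1 and 383 in replicate 2. It ranked 73 in the pooled list, 63 in replicate 1 and 94 in replicate 2, so it stood among the strongest peaks in each. By promoter signal cpr-4 was 49 of 3712 genes. The window held 5 thresholded summits in all, the highest number among the 10 genes. The other 4 were weaker: 154 in the intron at 79 bp downstream of the start, 129 at 643 bp past the 3' end, 113 in the 3' untranslated region and 102 at -1618 bp. The intronic summit ranked 2849 in replicate 1 and 8299 in replicate 2, so this weak summit was less even between the replicates than the main one.

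The gene cpr-3 (WBGene00000783, V: 15296834 to 15298700, minus strand), for another cathepsin B-like protease, carried a lone thresholded summit. It lay at V: 15298790, or -90 bp, with a signal of 685, and with 375 in replicate 1 and 316 in replicate 2. Its ranks of 199 and 212 were the closest pair of the 10 genes, so both replicates placed it alike. By promoter signal cpr-3 was 133 of 3712 genes.

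The gene cpr-1 (WBGene00000781, V: 11975551 to 11976756, plus strand) encodes a gut-specific cysteine protease. Its main summit at V: 11975395, or -156 bp, had a signal of 530.1, with 321 in replicate 1 and 221 in replicate 2. The ranks were 346 and 690, a ratio of 1.99 and the widest of the 10 genes. The summits of replicates 1 and 2 lay 1 and 47 bp from the pooled one. The summit falls in an exon of the noncoding gene C52E4.17, which is annotated on the opposite strand. A summit in an intron of cpr-1, at 43 bp downstream of the start, had 95.9, the lowest thresholded value in these windows. It was uneven between the replicates: the nearest summit ranked 6490 in replicate 1 and 3050 in replicate 2, where it lay 47 bp away. Another summit, 182 bp past the 3' end, had 259 and lay in a coding exon of the neighbouring gene mif-2, which encodes a homologue of macrophage migration inhibitory factor. The replicates placed that summit at ranks 2440 and 2336.

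The gene cpr-6 (WBGene00000786, X: 6607207 to 6609045, plus strand), for a cathepsin B-like protease, had its main summit at X: 6607166, or -41 bp. Its signal was 323, with 185 in replicate 1 and 141 in replicate 2. A weaker summit 168 bp past its 3' end had 113, and its nearest protein-coding start was that of C25B8.8, from which it lay at -804 bp. Within the gene, a summit in a coding exon had 79.0 and was below the threshold.

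The gene cpr-5 (WBGene00000785, V: 1132598 to 1134036, minus strand), also for a cathepsin B-like protease, had no thresholded promoter summit. Its only thresholded summit lay 111 bp past the 3' end, with a signal of 100.5, near the lower limit of the list. That summit had 59.1 in replicate 1 and 42.7 in replicate 2, and the nearest protein-coding start was that of W07B8.4, from which it lay at -557 bp. By strongest signal in the gene window, cpr-5 was 6161 of the 6443 genes with a summit, where the other 9 genes lay above the median of 222. At the start of cpr-5 the pooled list held a summit 47 bp downstream, in the 5' untranslated region, with 71.8 and thus below the threshold. Both replicates listed it, at ranks 9930 and 7602.

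Among the aspartyl protease genes, asp-4 had the strongest peak in the pooled list and in replicate 2, while in replicate 1 asp-3 stood just above it, with 198 against 195. ASP-4 and ASP-3 are known as lysosomal proteases that take part in necrotic death of neurons in the worm. The gene asp-4 (WBGene00000217, X: 13218985 to 13221462, minus strand) had a lone thresholded summit at X: 13221561, or -99 bp, with a signal of 394. It had 195 in replicate 1 and 200.01 in replicate 2, with summits 50 and 32 bp from the pooled one. No pooled summit lay within 300 bp of its 3' end, even below the threshold.

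The gene asp-3 (WBGene00000216, X: 6791064 to 6792709, plus strand) had its strongest summit far upstream, at X: 6789182, or -1882 bp. The signal was 335, with 198 in replicate 1 and 137 in replicate 2. That summit lies in an intron of the neighbouring gene sgca-1, 366 bp downstream of the start of sgca-1, and one with 120.1 lies in a coding exon of it. Both are nearer to the start of sgca-1 than to that of asp-3. A further summit lay 68 bp past the 3' end of asp-3, with 247. At the start of asp-3 itself the pooled list had a summit in the 5' untranslated region, 103 bp downstream, with 90.9. This was the highest summit in these windows outside the thresholded list, whose lowest value was 93.0. Replicate 2 ranked its nearest summit there at 5917, which is inside its own 7038 strongest, and replicate 1 ranked it at 7635.

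The gene asp-1 (WBGene00000214, V: 19049562 to 19050752, minus strand) encodes an aspartyl protease known from the intestine. Its promoter summit at V: 19051628 lay farther upstream than at the other 7 genes with a promoter summit, at -876 bp. The signal was 354, with 179 in replicate 1 and 174 in replicate 2. At the start itself the pooled list held only a weak summit of 27.1, at -38 bp. Downstream, 1 interval held a pair of summits, 219 and 13 bp past the 3' end, with 231 and 118. The first of these ranked 2071 in replicate 1 and 3963 in replicate 2.

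The genes asp-6 (WBGene00000219, V: 8267511 to 8268937, minus strand) and asp-5 (WBGene00000218, V: 8272385 to 8274044, plus strand) lie close together, with another aspartyl protease gene, asp-12, between them. The summit upstream of asp-6, at V: 8269152, had a signal of 349.9, with 183 in replicate 1 and 165 in replicate 2. It lies -215 bp from the start of asp-6 and -58 bp from that of asp-12, which points the other way, so the summit cannot be given to either gene alone. A summit 43 bp past the 3' end of asp-6 had 288, the highest value of the 8 summits near 3' ends. Its nearest protein-coding start was that of F21F8.5, from which it lay at -1136 bp. A summit with 275 lay in an intron of asp-12. The promoter summit of asp-5, at V: 8272203 or -182 bp, had 228, with 114 in each replicate. It lies between the 3' end of asp-12 and the start of asp-5. A summit 102 bp past the 3' end of asp-5 had 84.5 and was below the threshold.

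The order of the 10 genes by their strongest summit was the same in both replicates at its ends. Ordered by signal, cpr-4, cpr-3 and cpr-1 came first and asp-5 and cpr-5 came last in each replicate. The other 5 genes, asp-4, asp-1, asp-6, asp-3 and cpr-6, had pooled signals from 323 to 394 and changed places between the replicates. With 2 replicates on separate scales, these 5 were not separated beyond their spread. Of the 10 strongest summits, 9 overlapped a peak among the 7038 strongest of each replicate, and the exception was that of cpr-5. All 23 thresholded summits had a summit within 100 bp in both replicates' full lists, at a median distance of 4 bp in replicate 1 and 8 bp in replicate 2. The thresholded list was itself derived from these replicates, so this is not an independent check.

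**Figure D2:**
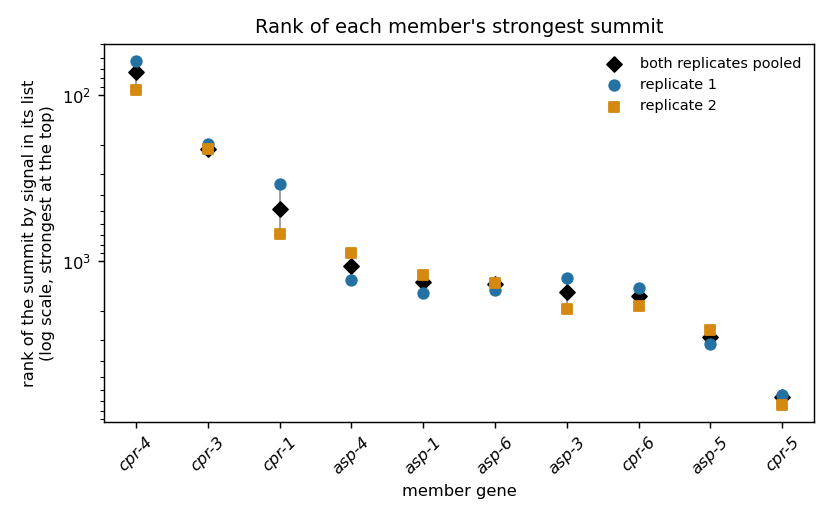
Rank by signal of the strongest thresholded summit of each gene in the pooled list and of its nearest summit within 100 bp in each replicate's list, on a log axis with the strongest at the top. Diamonds are the pooled list, circles replicate 1 and squares replicate 2. The summit of cpr-4 ranks between 63 and 94 in the 3 lists, and that of cpr-5 between 6424 and 7364.

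The promoter signals of the 8 genes were all above the median of genes with a promoter summit. The lowest was that of asp-5, at place 1563 of 3712, followed by cpr-6 at 883, asp-6 at 744, asp-1 at 725 and asp-4 at 564. The cathepsin B-like genes cpr-1, cpr-3 and cpr-4 stood at 276, 133 and 49. The 2 classes were thus mixed, with cpr-6 among the aspartyl protease genes.

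**Figure D3:**
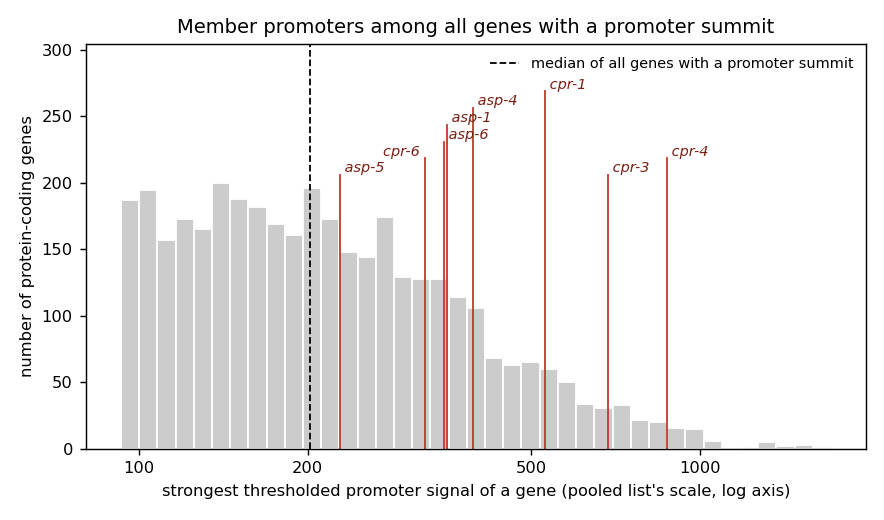
Histogram of the strongest thresholded promoter signal of the 3712 protein-coding genes that have one, on a log axis in the pooled list's scale, with the 8 protease genes as labelled lines and the median of 202 as a dashed line. The lines run from 228 at asp-5 to 874 at cpr-4.

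Peaks at the 3' ends were found at most of these genes, which was noticed in the data. A thresholded summit within 300 bp of the 3' end was found at 7 of the 10 genes, all except cpr-3, asp-4 and asp-5. Among all protein-coding genes it was found at 4.87%, and among those with a thresholded promoter summit at 9.83%. The strongest of these signals had a median of 231 over the 7 genes and ranged from 100.5 at cpr-5 to 288 at asp-6. Over all 973 such genes the median was 181, and 4 of the 7 genes were above it: asp-6, cpr-1, asp-3 and asp-1. Of the 8 genes with a promoter summit, 5 also carried a thresholded summit near the 3' end: cpr-1, cpr-4, cpr-6, asp-1 and asp-6. Among all protein-coding genes with a thresholded promoter summit the share was 9.83%. Of the 8 summits near 3' ends, 6 lay in intergenic sequence past the gene, that of cpr-4 lay in its 3' untranslated region and that of cpr-1 in a coding exon of mif-2. Those of cpr-5, cpr-6 and asp-6 lay nearer to the start of another gene. Such a summit was also found at 1 of 3 other cpr genes, 1 of 12 other asp genes and 2 of 12 other lysosomal protease genes. The asp gene was asp-12, and its 3' end summit is the same as the promoter summit of asp-5, so it is not a further peak. The 3' end summit of cpl-1, with 439, was above all 3' end summits of the 10 genes. The genes are short, from 1178 bp for cpr-4 to 2478 bp for asp-4, so their ends lie closer together than in many genes, and the part of gene length in this count was not tested. The count was 8 in the strongest peaks of replicate 1 and 5 in those of replicate 2, where cpr-4, cpr-5 and asp-5 had none, and it was 4 with only summits above the list's median signal.

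Other proteases of the same families were looked up in the same way. Of the 3 other cpr genes, cpr-9 had a summit in the gene window (354, at -735 bp), and cpr-2 and cpr-8 had none. The gene cpr-8 is the divergent neighbour of cpr-5, which itself had no thresholded summit at its start. Of the 12 other asp genes 5 had one, which is 41.7%, near the 32.3% of all protein-coding genes. The strongest were asp-12 (349.9), asp-2 (303, at -163 bp), asp-14 (128) and asp-13 (109.9). All 4 summits in the window of asp-12 were also in those of asp-5 or asp-6. The genes asp-15, asp-16 and asp-17, which lie on the same stretch of chromosome V as asp-1, had none, and neither did asp-7, asp-9, asp-18 and asp-19.

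Of 12 other lysosomal protease genes, 9 had a summit in the gene window, which is 75% against 32.3% of all protein-coding genes, with no test made. The gene window grows with gene length, which the 75% does not take into account. The strongest was that of ctsa-2, a cathepsin A-like gene (661), followed by cpl-1, the cathepsin L gene (439), cpz-1, the cathepsin Z gene (399), and lgmn-1, the legumain gene (363). The ctsa-2 summit lay within the gene, 3209 bp downstream of its start, and ctsa-2 had no promoter summit. The cpl-1 summit, like those of several genes above, lay past the gene, 2905 bp from its start. The cathepsin F gene tag-196 had none, and neither did ctsa-3.2 and ctsa-4.1. Both genes for cystatin-type inhibitors of cysteine proteases had a summit below the list's median signal of 194, cpi-2 with 157 and cpi-1 with 142. Of 5 prolylcarboxypeptidase-like genes 3 had one, which is 60% against the same 32.3%, with 1055 at pcp-1 and 618 at a summit that the windows of pcp-2 and pcp-3 share.

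All 4 listed regulators of intestinal and lysosomal genes had a summit in the gene window, against 32.3% of all protein-coding genes. Long genes have longer windows, and the long gene hlh-30 held 10 summits. The intestinal GATA factor gene elt-2 had 709.8 at -478 bp, and its relative elt-7 had 329 at -50 bp. The gene hlh-30, for the worm TFEB, had 579 within the gene and 156 at its promoter, and the zinc finger factor gene pqm-1 had 356 within the gene and 234 at its promoter.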

How the data were processed

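ChIP-seq for GFP-tagged NHR-80 was analysed in 2 replicates of whole young adults. The deposited files are narrowPeak lists, called against a control per the notes deposited with the samples. They were called on each replicate and on both replicates pooled, and 1 list was thresholded by IDR. The signal of each peak, with its summit position, is the authors' deposited value. Neither aligner nor peak caller, nor any IDR limit, is named in the labels and notes read.

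The 4 lists on build ce11 were set against the WBcel235 annotation of Ensembl release 115. All nuclear peaks of the pooled list end within the chromosome lengths of the RefSeq WBcel235 genome. The 18 mitochondrial peaks of the thresholded list were left out. Summits were assigned to every gene whose window held them, ranks came from the signal within a list, and replicate summits were matched within 100 bp. Of the ce10 files, 1 gave the lowest signal of its thresholded list, 52.3, and none gave coordinates. No p-value was computed: there is 1 group, and the genes and lists were chosen with earlier results of these data known. Genes were named by rule: the 10 genes, neighbours with a start nearer to a summit, and up to 4 genes of each family list with the strongest summit. Genes without summits and C52E4.17 were named in addition, and the genes around 3' ends were counted after their values were seen. The window and motif functions were tested on simulated data. Alternatives to the threshold, windows, lists and matching were tried. Python 3.11.15 with numpy 2.4.6, pandas 2.3.3 and matplotlib 3.10.9 was used.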

Additional observations from a re-analysis of the deposited data

How the results depend on the processing

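There were 37 alternative values of the counts and of the median signal. Of these, 31 stayed within 1.5 times the value reported or, for the median signal, within the spread between replicates. The strongest signal of each gene in each replicate, on its own scale, was not among the 37. All of those signals moved beyond 1.5 times. The 10 genes with a summit stayed between 8 (nearest start only) and 10, and the 8 with a promoter summit between 7 and 10. By nearest start, cpr-5 and asp-6 dropped out, as all their thresholded summits lay nearer to the start of another gene. The count of 23 summits fell to 14 with only peaks above the median signal and rose to 49 in the pooled list before thresholding. The 7 genes with a summit near the 3' end became 4 above the median signal, and 8 and 5 in replicates 1 and 2 alone. The 10 summits with TGATAA became 16 within 100 bp. A wider stretch holds more matches at any summit. The share of all nuclear thresholded summits within 100 bp was not computed, and the 37.9% given for 50 bp does not apply to it. The median strongest signal of 352 was 190 and 174 in replicates 1 and 2, on their own scales. Down to the lowest signal of the ce10 list, 52.3, all 10 genes had a promoter summit, asp-3 and cpr-5 included. This alternative was chosen after seeing the data, and its limit comes from another list with its own scale. The share of all protein-coding genes at this limit was not computed, and the 18.6% given above does not apply to it. No paired analysis was possible because there is 1 group. Without read counts, what depth limits is unknown.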
